A study of Drosophila melanogaster with 24 samples.

Results

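The maternal axis mRNAs described here are those of 9 *Drosophila melanogaster* genes, taken from the array by gene symbol: bicoid (*bcd*), caudal (*cad*), exuperantia (*exu*), swallow (*swa*), staufen (*stau*), Bicaudal D (*BicD*), egalitarian (*egl*), torso (*tor*) and trunk (*trk*). They were 9 of the 13670 genes and 15 of the 17769 transcript rows that carried values. *bcd* had 5 rows, *stau* and *tor* had 2 each, and the other genes had 1. Their rows were taken by symbol alone, and the genes were chosen with earlier results of these data known.

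Embryos begin with mRNAs loaded by the mother, which are cleared in waves during the maternal-to-zygotic transition while zygotic transcription takes over. *bcd* mRNA is held at the anterior pole and encodes a homeodomain protein that activates anterior genes and represses translation of the uniformly loaded *cad* mRNA, so that CAD protein forms a posterior gradient. EXU, SWA and STAU are needed for *bcd* mRNA to reach or stay at the anterior pole, BICD and EGL form the adaptor that couples localized mRNAs to dynein, and *tor* and *trk* encode the receptor tyrosine kinase and a secreted ligand of the terminal system. BRAT is an RNA-binding protein of the TRIM-NHL family that is known for repression of maternal *hunchback* mRNA together with PUM and NOS.

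Total RNA was compared between embryos from *brat*-mutant females of the genotype bratfs1/Df(2L)TE37C-7 and wild-type embryos from w1118 flies. Both were collected at 0-1.5, 1.5-3, 3-4.5 and 4.5-6 h after egg laying, which gave 8 groups of 3 biological replicates and 24 samples. bratfs1 is a missense allele, Df(2L)TE37C-7 is a deficiency that spans the locus, and the fathers were mostly heterozygotes carrying 1 of these chromosomes over the CyO balancer, so the embryos differed in their own genotype and the comparison was between mothers. Whole embryos were pooled, so that fewer cells holding an mRNA and less of it per cell cannot be told apart, and the rows do not separate maternal from zygotic transcripts of 1 gene. All values are log2 RMA signals, so 1 unit is a 2-fold difference in signal, and levels were compared between groups for the same gene and not between genes.

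Each array carried 1 Cy3-labelled and 1 Cy5-labelled sample. At every time point *brat* replicates 1 and 3 and wild-type replicate 2 were labelled with Cy3, and *brat* replicate 2 and wild-type replicates 1 and 3 with Cy5. Most samples of a genotype thus carried the same dye within a time point, while the dyes of a genotype did not change over time. A test of the dye effect with genotype in the model called 0 of 5750 genes at each of the 4 times. With 3 against 3 samples and dye uneven over the genotypes, it could hardly detect a dye effect, so none is excluded. At 4.5-6 h its Cy5 minus Cy3 estimates for the member genes tested ran from -1.21 (*exu*) to 0.05 (*BicD*). Replicates of a group correlated at 0.929 to 0.969 over the 5750 genes tested, with the rows of a gene averaged. Signal of *brat* itself was 13.19, 13.40 and 13.27 in mutant and 13.85, 14.24 and 13.79 in wild-type embryos at 0-1.5 h, a difference of -0.67 (adjusted p = 0.0459), and its differences at the later times were between -0.08 and 0.11 and were not called. The mothers carried the missense allele over a deficiency of the locus, and this signal does not read the missense change itself.

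Staging markers differed between the genotypes. Of 9 early zygotic genes, 5 passed the expression filter in *brat* and 1 in wild-type embryos at 0-1.5 h, where their summed linear signal was 10750 to 21250 and 7494 to 8828, respectively. At 1.5-3 h the sum was 45190 to 66220 in *brat* and 76730 to 90230 in wild-type embryos, and at 4.5-6 h it was 12350 to 20680 and 26410 to 27050. At 3-4.5 h the ranges of this sum overlapped, at 23240 to 36780 and 36440 to 39870. The 5 later embryonic genes (*Ubx*, *abd-A*, *Antp*, *en*, *wg*) summed to 2127 to 2541 in *brat* and 1443 to 1756 in wild-type embryos at 0-1.5 h and to 3981 to 7886 and 2779 to 3587 at 1.5-3 h. The order was the opposite later, when they summed to 9517 to 11720 in *brat* and 13100 to 17410 in wild-type embryos at 3-4.5 h, and to 9312 to 12520 and 15240 to 18690 at 4.5-6 h. Of 12 follicle-cell and yolk genes, 0 passed the filter in any group. Whether these marker differences reflect embryo age or genotype was not tested, nor was their part in the results that follow.

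**Figure D1:**
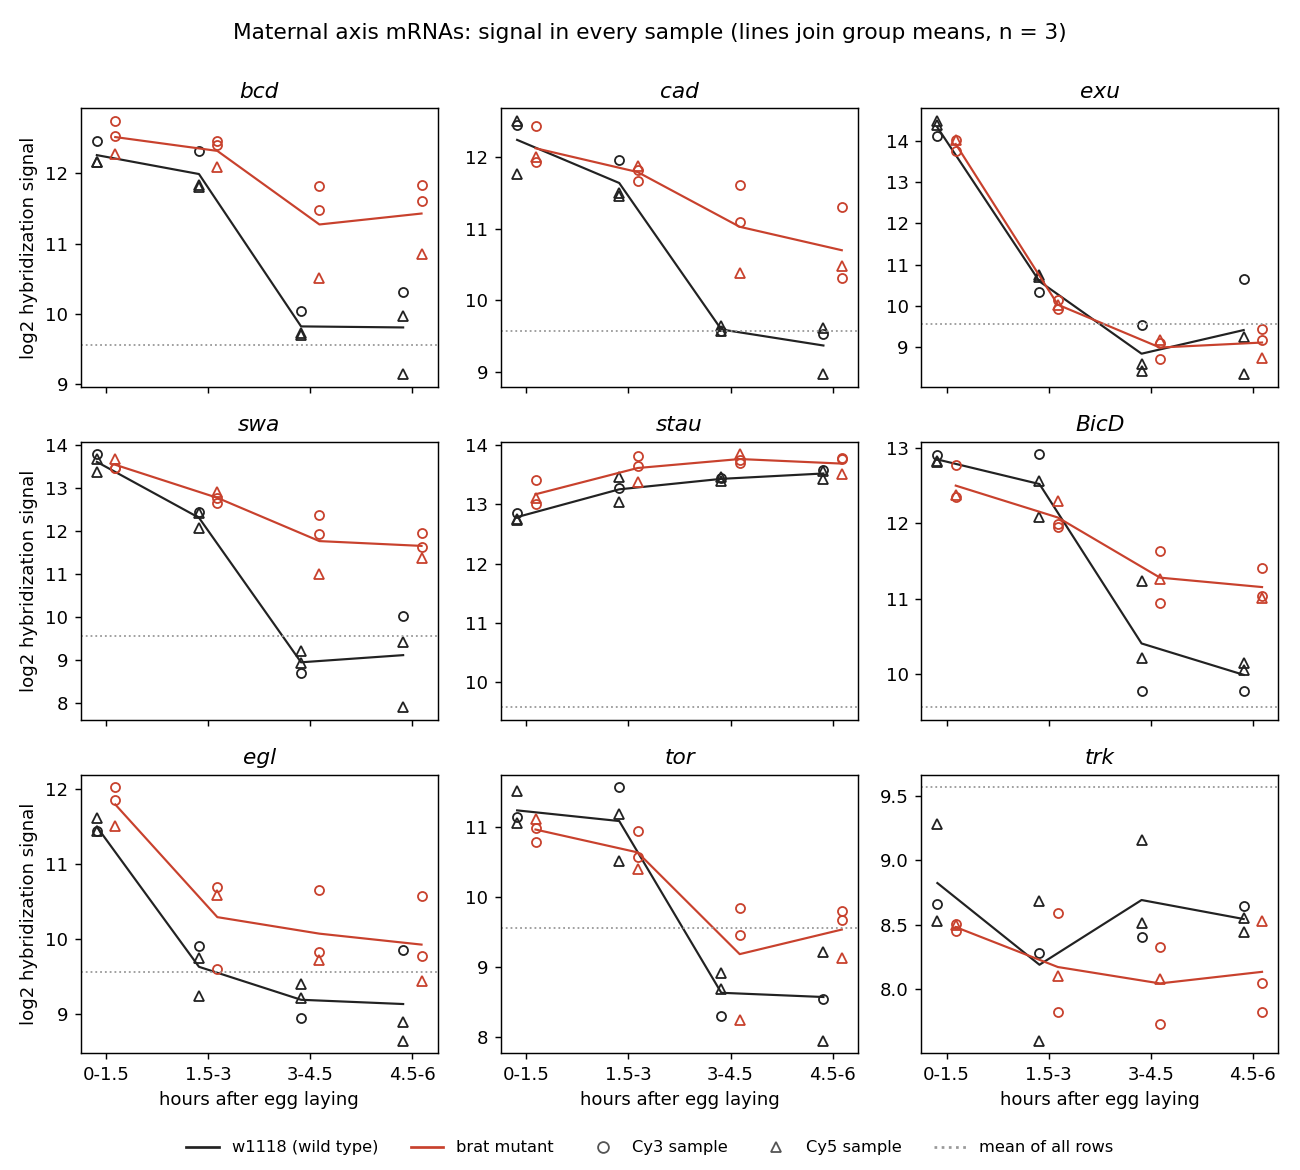
Log2 hybridization signal (vertical axis) of the 9 genes against hours after egg laying (horizontal axis) in wild-type (black) and *brat* mutant (red) embryos; circles are Cy3 and triangles Cy5 samples, lines join the means of 3 replicates and the dotted line is the mean of all rows. The *bcd*, *cad* and *swa* samples of the genotypes do not overlap at 3-4.5 h or at 4.5-6 h, all *exu* samples lie at 13.75 or above at 0-1.5 h and at 10.75 or below at 1.5-3 h, and *trk* lies below the mean of all rows throughout.

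Levels were first followed through time in wild-type embryos. A gene was tested if at least 1 of its rows lay above the mean of all rows in at least 1 group, and 8 of the 9 genes were, with *trk* the exception. *bcd*, *stau* and *BicD* passed this filter in all 8 groups, *cad* and *swa* in all 4 *brat* groups and the first 2 wild-type groups, and *exu* and *tor* in the first 2 groups of each genotype. *egl* passed in 3 groups, wild type 0-1.5 h, *brat* 0-1.5 h and *brat* 1.5-3 h. Genes that passed only in early groups entered the tests where they were high, so their falls are not independent of the filter. The same filter set the 5750 genes behind the shares given below.

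The falls were called in the first and the second window. From 0-1.5 h to 1.5-3 h, 3 of 8 fell (*exu*, *egl*, *swa*), beside 25.9% of the 5750 genes tested, and *stau* rose, beside 19.3%, a call lost under the same rescaling as its rise over the whole course. From 1.5-3 h to 3-4.5 h, 6 of 8 fell (*bcd*, *cad*, *exu*, *swa*, *BicD*, *tor*), beside 25.1%. From 3-4.5 h to 4.5-6 h 0 of 8 were called, beside 10.1% in either direction. At an unadjusted p under 0.05 there were also 0 of 8, beside 767 higher and 595 lower of all 5750 genes. By 3-4.5 h the means of *exu*, *swa*, *egl* and *tor* lay below the mean of all rows, where a further fall may not show. Over the whole course 7 of 8 fell, beside 34.9%, and *stau* rose, beside 25.5%, a call lost when samples were rescaled on ribosomal protein genes, while the 7 falls were kept. The median of the 8 was -2.76, and that of all genes tested was -0.15.

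*exu* showed the largest drop of the 8 mRNAs. Wild-type signal was 14.40, 14.12 and 14.49 at 0-1.5 h and 10.75, 10.33 and 10.69 at 1.5-3 h, a drop to 7.45% of the starting signal (95% interval 4.35 to 12.8, adjusted p = 6.763e-08). It then fell by a further 1.76 to 8.40, 9.52 and 8.58 at 3-4.5 h (adjusted p = 0.0006017). The 4.5-6 h samples, 8.33, 10.65 and 9.24, spread most, with the Cy3 sample highest at both late times. The remaining signal at 4.5-6 h was 3.28% (1.91 to 5.63).

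*egl* fell in the first window and was not called in the next. It read 11.61, 11.45 and 11.44 at 0-1.5 h and 9.74, 9.92 and 9.24 at 1.5-3 h in wild-type embryos, and so fell by 1.87 (adjusted p = 0.0001256). This left 27.4% of the signal (16.8 to 44.7), and the next step was -0.44 (adjusted p = 0.306). Its partner *BicD* kept another course: 12.82, 12.90 and 12.81 at 0-1.5 h and 12.08, 12.91 and 12.56 at 1.5-3 h overlapped, and the signal then fell by 2.11 to 10.21, 9.79 and 11.23 at 3-4.5 h (adjusted p = 3.527e-06). At 4.5-6 h 19.4% of the *egl* signal (11.9 to 31.7) and 13.9% of the *BicD* signal (9.33 to 20.7) remained.

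*swa* fell in both windows. Its wild-type signal was 13.36, 13.78 and 13.66 at 0-1.5 h, 12.07, 12.44 and 12.41 at 1.5-3 h and 9.22, 8.7 and 8.94 at 3-4.5 h, steps of -1.29 (adjusted p = 0.006664) and -3.35 (adjusted p = 4.095e-07). The second step was the largest of the 8 genes in that window, and 4.48% of the signal (2.64 to 7.61) remained at 4.5-6 h.

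The *bcd* and *cad* signals did not pass the test in the first window and fell in the second. In wild-type embryos *bcd* read 12.16, 12.46 and 12.16 at 0-1.5 h and 11.81, 12.32 and 11.84 at 1.5-3 h, which overlapped, and then 9.71, 10.04 and 9.73 at 3-4.5 h, and so fell by 2.17 (adjusted p = 9.734e-06). *cad* read 11.77, 12.45 and 12.51, then 11.46, 11.96 and 11.50, then 9.64, 9.57 and 9.57, with a second step of -2.05 (adjusted p = 8.147e-06). Its first step of -0.60 was not called (adjusted p = 0.0940) and was called without wild-type 0-1.5 h replicate 1 (-0.84, adjusted p = 0.0362) and under the ribosomal protein rescaling (-0.95, adjusted p = 0.006362). By 4.5-6 h 18.3% (11.7 to 28.6) of the *bcd* and 13.6% (9.0 to 20.7) of the *cad* signal remained.

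*tor* also fell in the second window, with wild-type signals of 11.51, 11.15 and 11.06 at 0-1.5 h, 11.19, 11.57 and 10.51 at 1.5-3 h and 8.91, 8.30 and 8.68 at 3-4.5 h. Its second step was -2.46 (adjusted p = 9.765e-06), and 15.7% (9.47 to 26.1) of the signal remained at 4.5-6 h. *trk*, the ligand, had group means of 8.05 to 8.82 and single values of 7.60 to 9.28, all below the 9.55 to 9.58 that the groups averaged over all rows. No level or decay of *trk* could therefore be read from its row.

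Under the deposited normalization *stau*, which encodes a double-stranded RNA-binding protein, rose where the other 7 fell. Its wild-type signal was 12.75, 12.85 and 12.76 at 0-1.5 h, 13.04, 13.27 and 13.46 at 1.5-3 h, 13.40, 13.44 and 13.46 at 3-4.5 h and 13.57, 13.58 and 13.43 at 4.5-6 h, a rise of 0.74 (adjusted p = 0.0002617), which became 0.30 (adjusted p = 0.151) when samples were rescaled on 83 ribosomal protein genes. That rescaling moved the median of all genes from -0.15 to -0.59 over this interval and the calls over all genes from 1466 higher and 2008 lower to 847 and 2942, and in *brat* embryos from -0.15 to -0.50 and from 1141 and 1682 to 686 and 2693. In *brat* embryos *stau* read 13.41, 13.11 and 13 at 0-1.5 h and 13.79, 13.52 and 13.76 at 4.5-6 h, a rise of 0.52 (adjusted p = 0.007219) that became 0.16 (adjusted p = 0.445) under the rescaling. The first step of *stau*, 0.47 in wild-type and 0.44 in *brat* embryos (adjusted p = 0.0151 and 0.0266), became 0.12 and 0.17 under the rescaling and was not called, and in wild-type embryos it was also lost without 1.5-3 h replicate 3 (0.37, adjusted p = 0.0840). In *brat* embryos it was lost without 0-1.5 h replicate 2 or 3 or 1.5-3 h replicate 1 or 3 (0.35 to 0.43, adjusted p = 0.0685 to 0.125).

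In *brat* mutant embryos the same 7 mRNAs fell over the whole course, beside 29.3% of all genes, *stau* rose under the deposited normalization as given above, beside 19.8%, and the second window held 2 calls in place of 6. From 0-1.5 h to 1.5-3 h *exu* fell by 3.91 and *egl* by 1.50 (adjusted p = 1.211e-07 and 0.001461), beside 20.9% of all genes, *stau* was the single rise noted above, beside 13.8%, and *swa* changed by -0.77 (adjusted p = 0.113), which was called under the rescaling (-1.04, adjusted p = 0.0252) and when only the 2 groups compared were fitted (-0.77, adjusted p = 0.009348). From 1.5-3 h to 3-4.5 h *bcd* fell by 1.05 (adjusted p = 0.0271) and *tor* by 1.46 (adjusted p = 0.008621), beside 9.25% of all genes. *cad*, *exu*, *swa* and *BicD* changed by -0.76, -1.04, -1.0 and -0.79 with adjusted p of 0.0754, 0.0633, 0.0678 and 0.0551. From 3-4.5 h to 4.5-6 h 0 of 8 were called, beside 1.17% of all genes. At an unadjusted p under 0.05 there were also 0 of 8, beside 378 higher and 349 lower of all 5750 genes.

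The calls of the second window in *brat* embryos depended on single samples. Without *brat* 3-4.5 h replicate 2, the Cy5 sample, *bcd* changed by -0.66 (adjusted p = 0.183) and *tor* by -0.99 (adjusted p = 0.0691), and *bcd* was also lost without 1.5-3 h replicate 1 or 3 (-0.98 and -1.0, adjusted p = 0.0891 and 0.060). Without *brat* 3-4.5 h replicate 3 the falls of *cad*, *swa* and *BicD* were called (-1.06, -1.30 and -0.97, adjusted p = 0.0189, 0.0278 and 0.0340). Over the whole course *bcd* fell by 1.09 (adjusted p = 0.006225), or by 0.80 without *brat* 4.5-6 h replicate 2 (adjusted p = 0.0537).

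The signal left at 4.5-6 h in *brat* embryos was 47.1% (30.1 to 73.6) for *bcd*, 37.2% (24.6 to 56.4) for *cad*, 27.1% (16 to 46.1) for *swa*, 39.5% (26.5 to 58.8) for *BicD* and 37.1% (22.3 to 61.6) for *tor*. *egl* kept 27.4% (16.8 to 44.6). *exu* kept 3.53% (2.06 to 6.04) in *brat* embryos, next to 3.28% in wild-type embryos. These are shares of array signal and not of RNA molecules. The 4.5-6 h means of *exu* and *tor* in both genotypes, and of *swa*, *egl* and *cad* in wild-type embryos, lay below the mean of all rows. Shares that rest on them are not exact.

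**Figure D2:**
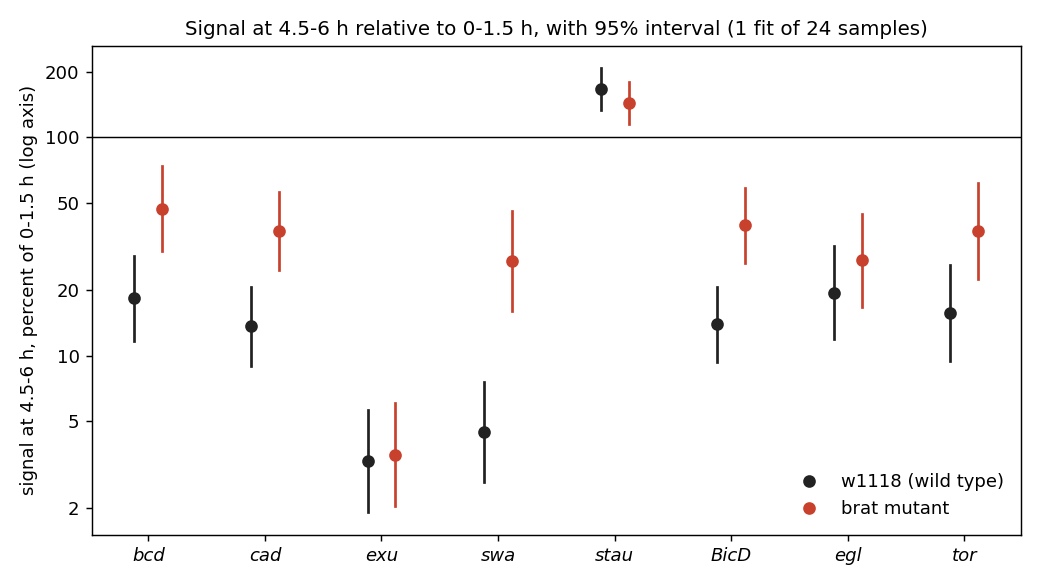
Signal at 4.5-6 h as percent of that at 0-1.5 h (vertical log axis) for the 8 tested genes (horizontal axis) in wild-type (black) and *brat* mutant (red) embryos; points are estimates from the fit of 24 samples and bars their 95% intervals. *swa* shows 4.48% in wild-type and 27.1% in *brat* embryos, whereas the *exu* estimates, 3.28% and 3.53%, nearly coincide. The 4.5-6 h means behind both *exu* values and the wild-type *swa* value lie below the mean of all rows.

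The genotypes were then compared at each time. At 0-1.5 h and 1.5-3 h 0 of the 8 genes were called, beside 8.8% and 7.58% of all genes, and SAM, the test that the study's methods name, called 0 as well. The medians of the 8 were -0.09 and 0.24. At an unadjusted p under 0.05, *exu* and *stau* at 0-1.5 h (-0.41 and 0.39) and *exu* and *swa* at 1.5-3 h (-0.57 and 0.46) would have counted. At 0-1.5 h the groups did not overlap for *stau*, which was higher, and for *exu* and *BicD*, which were lower, beside 13.4% and 15.8% of all genes, and at 1.5-3 h for *swa*, which was higher, and *exu*, which was lower, beside 14.2% and 16.3%. At 3-4.5 h *cad* and *swa* were higher in *brat* embryos, 2 of 8 beside 2.16% of all genes, with a median over the 8 of 0.88 beside -0.05 for all genes. At 4.5-6 h *bcd*, *cad*, *swa* and *BicD* were higher, 4 of 8 beside 6.3%, with a median of 1.06 beside -0.09. At either late time 0 of 8 were lower, by limma, by SAM or at an unadjusted p under 0.05, beside 1.43% and 5.7%. Groups did not overlap for 5 of 8 genes at 3-4.5 h and 4 of 8 at 4.5-6 h, all higher, beside 13.7% and 15.2% of all genes. The summed linear signal of 5 other maternal marker genes was 55580 to 74640 in *brat* and 36550 to 47240 in wild-type embryos at 3-4.5 h and 62180 to 71130 against 36860 to 47960 at 4.5-6 h, with no overlap at either time. The mean log2 signal of the same 5 genes overlapped, at 12.05 to 12.68 against 11.94 to 12.40 and at 12.44 to 12.64 against 11.93 to 12.54. Of the 5, *smg* was higher at both times (1.32 and 1.95, adjusted p = 0.0376 and 0.0110) and *Hsp83* was lower at 4.5-6 h (-0.95, adjusted p = 0.0221). At 1.5-3 h *stg* was higher (1.17, adjusted p = 0.0115) and *Hsp83* lower (-0.92, adjusted p = 0.04725). *stg* also rose from 1.5-3 h to 3-4.5 h in wild-type embryos and over the whole course in *brat* embryos. The late sum is therefore not a reading of cleared maternal mRNA alone. The part of these markers in the differences was not tested.

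**Figure D3:**
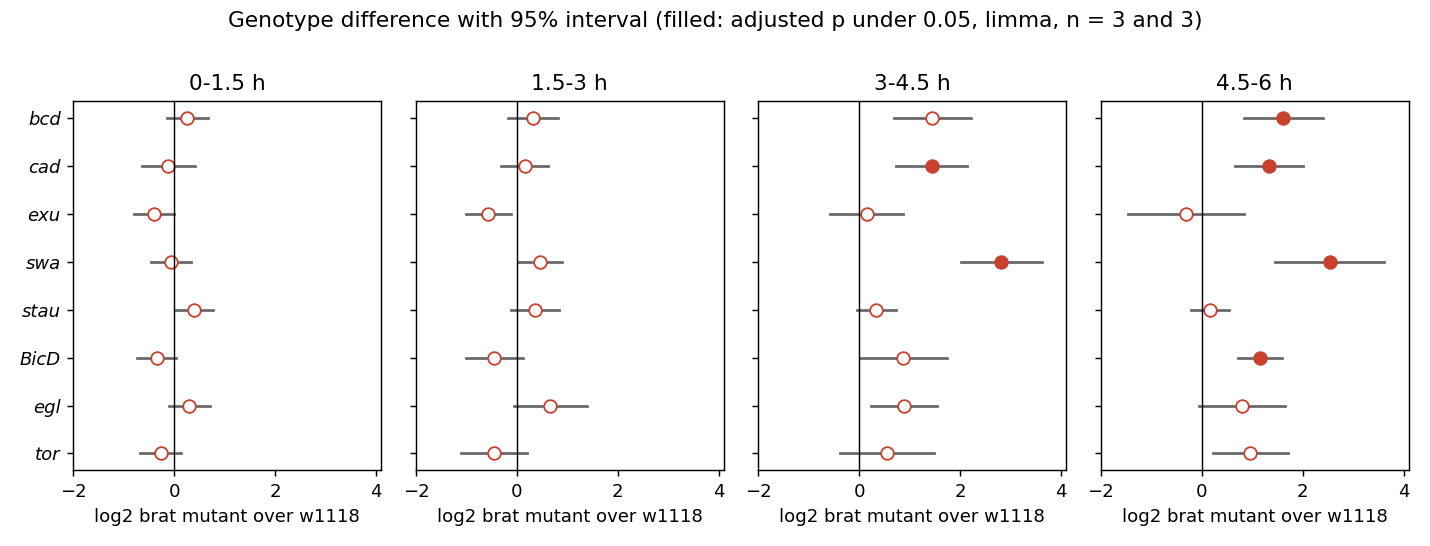
Log2 difference of *brat* mutant over wild-type embryos (horizontal axis) for the 8 tested genes at each of the 4 times; points are limma estimates from 3 against 3 samples, bars 95% intervals and filled points have an adjusted p under 0.05. No point is filled at 0-1.5 h or 1.5-3 h, *cad* and *swa* are filled at 3-4.5 h, and *bcd*, *cad*, *swa* and *BicD* at 4.5-6 h.

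*swa* differed most between the genotypes. At 3-4.5 h it read 11.93, 10.99 and 12.36 in *brat* and 9.22, 8.7 and 8.94 in wild-type embryos, and at 4.5-6 h 11.63, 11.37 and 11.96 against 7.91, 10.03 and 9.42. The lowest *brat* sample lay above the highest wild-type sample at both times. The difference was 2.81 (2.01 to 3.61, 7.02-fold, adjusted p = 0.0143) and 2.53 (1.46 to 3.61, 5.79-fold, adjusted p = 0.0133). The wild-type means at these times, 8.95 and 9.12, lay below the mean of all rows, so the fold values rest on low wild-type signal. The 3-4.5 h call was lost without *brat* replicate 1 (2.73, adjusted p = 0.0648) or wild-type replicate 2 or 3 (2.68 and 2.80, adjusted p = 0.0559 and 0.0553), and the 4.5-6 h call without *brat* replicate 3 (2.38, adjusted p = 0.0515).

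*bcd* at 3-4.5 h read 11.49, 10.51 and 11.83 in *brat* and 9.71, 10.04 and 9.73 in wild-type embryos. The groups did not overlap, and the difference of 1.45 (0.68 to 2.22, 2.73-fold) did not pass the test (adjusted p = 0.0572), although it did without *brat* replicate 2 (1.83, adjusted p = 0.0143) and by SAM (adjusted p = 0.0302). At 4.5-6 h the values were 11.61, 10.85 and 11.84 against 9.15, 10.31 and 9.98, a difference of 1.62 (0.83 to 2.41, 3.07-fold, adjusted p = 0.0213). That call was lost without *brat* replicate 1 or 3 (1.53 and 1.42, adjusted p = 0.0654 and 0.0732) or wild-type replicate 1 (1.29, adjusted p = 0.0503). *bcd* read higher with Cy3 than with Cy5 in all 8 groups, by 0.30 to 1.14, and 2 of the 3 *brat* samples carried Cy3.

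The 5 *bcd* rows, which stand for isoforms of 1 gene and were averaged above, were all higher in *brat* embryos at both late times, whereas at 0-1.5 h bcd-PG was at -0.02 and the other 4 at 0.27 to 0.40. Their late differences ran from 1.27 to 1.68 at 3-4.5 h, where bcd-PE alone was called among the rows (adjusted p = 0.0250), and from 1.36 to 1.85 at 4.5-6 h, where bcd-PE, bcd-PF and bcd-PG were called (adjusted p = 0.0201, 0.0158 and 0.009679). bcd-PA and bcd-PD had adjusted p of 0.0789 and 0.0535 at 4.5-6 h.

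*cad* showed a similar size of difference. It read 11.09, 10.38 and 11.62 in *brat* against 9.64, 9.57 and 9.57 in wild-type embryos at 3-4.5 h, and 10.31, 10.49 and 11.31 against 8.97, 9.53 and 9.61 at 4.5-6 h. The wild-type samples at 3-4.5 h lay within 0.07 of each other, near the mean of all rows, whereas the *brat* samples spread over more than 1 unit. The differences were 1.44 (0.73 to 2.14, 2.70-fold, adjusted p = 0.0450) and 1.33 (0.66 to 2.00, 2.52-fold, adjusted p = 0.0235). At 3-4.5 h the call was lost without any 1 sample other than *brat* replicate 2 (1.14 to 1.46, adjusted p = 0.101 to 0.125), and at 4.5-6 h without *brat* replicate 3 (1.03, adjusted p = 0.0555) or wild-type replicate 1 (1.13, adjusted p = 0.0695). With dye as a covariate it was 1.28 (adjusted p = 0.0870) and 1.24 (adjusted p = 0.0603).

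*BicD* was called at 4.5-6 h and not at 3-4.5 h. At 4.5-6 h it read 11.04, 11.01 and 11.41 in *brat* and 10.06, 9.78 and 10.15 in wild-type embryos, with no overlap and a difference of 1.16 (0.73 to 1.59, 2.24-fold, adjusted p = 0.007936). The call was kept without each of the 6 samples in turn (1.03 to 1.24, adjusted p = 0.0192 to 0.0286). At 3-4.5 h, where wild-type replicate 3 at 11.23 lay among the *brat* samples of 10.94, 11.27 and 11.63, the difference was 0.87 (0.01 to 1.73, adjusted p = 0.207), and it was called when all 24 samples shared 1 estimate of spread (adjusted p = 0.0388).

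*egl*, *tor*, *exu* and *stau* were not called at any time. *egl* at 3-4.5 h read 9.84, 9.73 and 10.66 in *brat* and 9.22, 8.96 and 9.40 in wild-type embryos, a difference of 0.88 (0.23 to 1.53, adjusted p = 0.117), and at 4.5-6 h 0.79 (-0.06 to 1.65, adjusted p = 0.197). *tor* read 9.47, 8.25 and 9.84 against 8.91, 8.30 and 8.68 at 3-4.5 h and 9.68, 9.13 and 9.80 against 7.95, 8.55 and 9.22 at 4.5-6 h, with overlap at both times. It differed by 0.55 (-0.37 to 1.48, adjusted p = 0.440) and 0.96 (0.23 to 1.70, adjusted p = 0.0887), and its 4.5-6 h difference was called without wild-type replicate 3 (1.29, adjusted p = 0.0385) and by SAM (adjusted p = 0.0423). The *exu* samples of *brat* embryos, 9.09, 9.15 and 8.7 at 3-4.5 h and 9.16, 8.73 and 9.42 at 4.5-6 h, lay within the wild-type range at both times. *exu* differed by 0.15 (-0.57 to 0.87) and -0.30 (-1.45 to 0.85), and *stau* by 0.34 (-0.05 to 0.72) and 0.17 (-0.21 to 0.54).

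The late differences were also taken within each dye, where Cy3 compared 2 *brat* samples with 1 wild-type sample and Cy5 1 with 2. *bcd* was higher in *brat* embryos in both dyes at 3-4.5 h (1.62 with Cy3, 0.79 with Cy5) and at 4.5-6 h (1.41 and 1.29). *cad* gave 1.79 and 0.77, then 1.28 and 1.2, *swa* 3.45 and 1.92, then 1.76 and 2.70, and *BicD* 1.50 and 0.55, then 1.45 and 0.91. These 4 genes thus kept their direction in either dye at both late times, and with dye as a covariate *bcd*, *swa* and *BicD* kept their 4.5-6 h calls (1.35, 2.23 and 1.18, adjusted p = 0.0264, 0.0271 and 0.0220). *tor* gave 1.35 with Cy3 and -0.55 with Cy5 at 3-4.5 h, and *exu* gave -0.62 and 0.67.

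**Figure D4:**
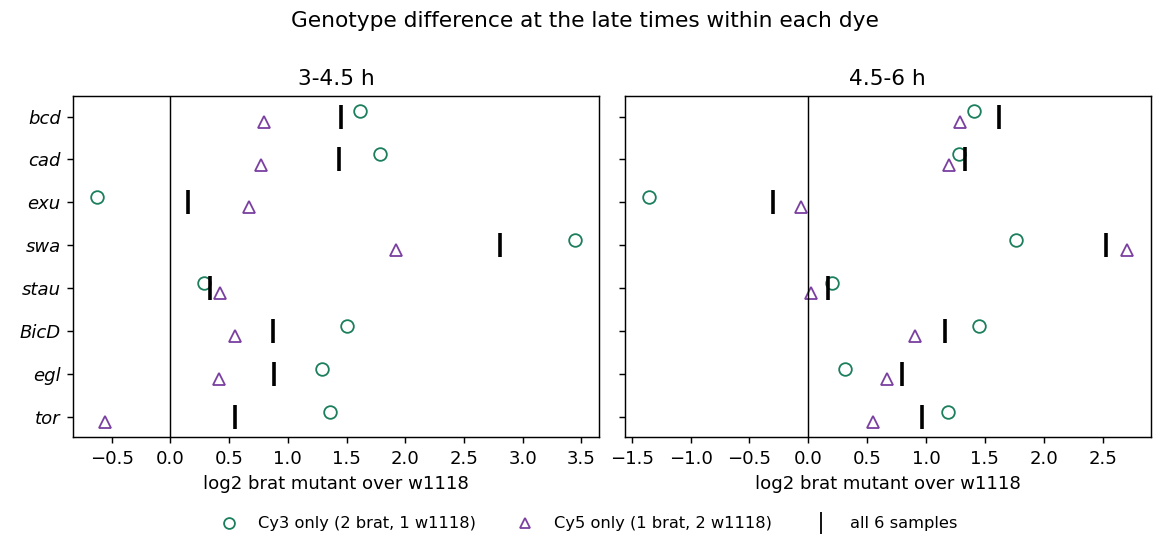
Log2 difference of *brat* mutant over wild-type embryos (horizontal axis) at 3-4.5 h and 4.5-6 h for the 8 tested genes, taken among Cy3 samples (circles), among Cy5 samples (triangles) and among all 6 (bars). *bcd*, *cad*, *swa* and *BicD* lie to the right of 0 in both dyes at both times, and *tor* and *exu* lie on opposite sides of 0 at 3-4.5 h.

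Whether the genotype difference itself changed with time was tested as an interaction, the difference at a later time minus that at 0-1.5 h, which shares the 0-1.5 h samples between times. At 1.5-3 h 0 of 8 were called, beside 1.5% of all genes. At an unadjusted p under 0.05 there were also 0 of 8, beside 386 higher and 355 lower of all 5750 genes. At 3-4.5 h *cad* (1.55, adjusted p = 0.0237) and *swa* (2.88, adjusted p = 0.001624) were called, beside 2.45% of all genes. At 4.5-6 h *cad* (1.45, adjusted p = 0.0312), *swa* (2.60, adjusted p = 0.003119) and *BicD* (1.51, adjusted p = 0.0186) were, beside 3.18%, and the *cad* call was lost with no expression filter (adjusted p = 0.0596). *bcd* gave 1.19 (adjusted p = 0.12) and 1.36 (adjusted p = 0.0630), which were called with dye as a covariate (adjusted p = 0.0141 and 0.004955). The *swa* calls were kept without each of 12 samples in turn, each *cad* call was lost without 6 of the 12 (1.14 to 1.52, adjusted p = 0.05 to 0.102), namely *brat* 0-1.5 h replicate 1 or 2, wild-type 0-1.5 h replicate 2 or 3, and *brat* replicate 1 or 3 at 3-4.5 h or *brat* replicate 3 or wild-type replicate 1 at 4.5-6 h, and the *BicD* call was lost without *brat* 0-1.5 h or 4.5-6 h replicate 3 (1.43 and 1.38, adjusted p = 0.0509 and 0.0589).

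For *exu* and *egl* the interaction was not called. *exu* gave 0.56 (-0.54 to 1.66) at 3-4.5 h and 0.10 (-1.0 to 1.2) at 4.5-6 h, and *egl* 0.58 (-0.41 to 1.58) and 0.49 (-0.50 to 1.49). Those intervals include 0 and also differences of more than 1 unit, so *exu* and *egl* are not shown to behave alike in the genotypes, and differences between genes were not tested.

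The 8 groups were also ordered by mean. For *bcd* every neighbouring pair overlapped in range except *brat* 3-4.5 h (11.27) and wild type 3-4.5 h (9.83), which split the 6 upper groups from the late wild-type groups. *cad* and *swa* split at the same place, between *brat* 4.5-6 h and the late wild-type groups (10.70 and 9.59 for *cad*, 11.65 and 9.12 for *swa*), *cad* also below *brat* 0-1.5 h, and *swa* also below *brat* 0-1.5 h and below *brat* 1.5-3 h. For *exu* the widest gap, from 13.93 to 10.59, lay between 0-1.5 h and 1.5-3 h of both genotypes. For *BicD* neighbouring late groups overlapped throughout, the middle pair through wild-type 3-4.5 h replicate 3. *tor* had its only gap between *brat* 1.5-3 h (10.64) and *brat* 4.5-6 h (9.54), so its late groups of both genotypes were not separated.

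Over the 8 group means, which share arrays and normalization, *bcd* and *swa* had a Pearson r of 0.985, *cad* and *swa* 0.987, *bcd* and *cad* 0.981 and *BicD* and *tor* 0.98, whereas *exu* and *bcd* had 0.665. Among 3923 other genes with a range of at least 1 unit, the profile most like *bcd* was that of *Hsl* (r = 0.995), followed by *CG7530* (0.994) and *dob* (0.993). For *cad* these were *Fur2*, *Sarm* and *Gs1* (0.993, 0.992 and 0.989), for *swa* *hoe1*, *GC1* and *Tsp74F* (0.995, 0.992 and 0.991), and for *BicD* *CG5726*, *Marf1* and *Dyro* (0.995, 0.994 and 0.992). *exu* was closest to *CG8180*, *CG12576* and *CG9896* (0.997, 0.997 and 0.996), *tor* to *CG17746*, *LpR2* and *CG10383* (0.995, 0.994 and 0.994), and *egl* to *CASK*, *Tmem43* and *GlcT* (0.989, 0.987 and 0.984). The means of *stau* spanned less than 1 unit, and it was left out. The genes named are the highest of 3923 candidates over 8 means, so a high r follows from the ranking and does not mark a particular partner.

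The genes that act with these mRNAs were read from 4 lists. The first holds 13 further genes of *bcd* RNA particles, anchoring and activation, of which 12 were tested, among them the maternal gamma-tubulin gene *gammaTub37C*, the gamma-tubulin complex gene *Grip128*, the ESCRT-II genes *lsn* and *Vps36*, the polyadenylation factors *orb* and *wisp* and the RNA-binding factor *bsf*. Over the wild-type course 6 of 12 fell (*orb* -4.57, *gammaTub37C* -4.39, *wisp* -3.56 and *Grip128* -2.18 the most), beside 34.9% of all genes, and 2 rose, *lsn* and *Vps36*, beside 25.5%. The median was -0.74 beside -0.15 for all genes, and under the ribosomal protein rescaling 8 of 12 fell and 0 rose, beside 2942 and 847 of all 5750. In *brat* embryos 6 of 12 fell, beside 29.3%, and 0 rose, beside 19.8%, with a median of -0.35 beside -0.15.

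In the genotype comparison 3 genes of that list were lower and 1 was higher at some time. At 0-1.5 h *gammaTub37C* (-1.99, adjusted p = 0.00065) and *Grip128* (-0.71, adjusted p = 0.0309) were lower in *brat* embryos, beside 3.9% of all genes, and *bsf* was lower at 1.5-3 h (-1.10, adjusted p = 0.0140), beside 3.57%, and 3-4.5 h (-0.96, adjusted p = 0.0311), beside 1.43%. *wisp*, the cytoplasmic poly(A) polymerase that activates *bcd* mRNA, was higher at 4.5-6 h (2.05, adjusted p = 0.0055), beside 6.3% of all genes. The medians of the 12 were -0.16 to -0.25 at the 4 times. The interaction at 4.5-6 h was called for *wisp* (2.09, adjusted p = 0.00452) and *gammaTub37C* (1.83, adjusted p = 0.0200). Of these genes, *gammaTub37C* and *bsf* lie on 2L, the arm of Df(2L)TE37C-7, the deficiency carried by the *brat*-mutant mothers. *gammaTub37C* also shares its 37C label with that deficiency. Whether that deficiency removes a copy of *gammaTub37C* or *bsf* was not tested, nor was its part in the differences of these 2 genes.

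All 11 genes of the list of dynein, dynactin, kinesin and associated genes were tested. Over the wild-type course 7 fell, beside 34.9% of all genes. Among them were the dynein light intermediate chain gene *Dlic* (-2.89), the kinesin genes *Khc* (-2.09) and *Klc* (-1.98) and the dynein heavy chain gene *Dhc64C* (-1.82). In *brat* embryos 6 fell, beside 29.3%. Medians were -0.71 and -0.70, both beside -0.15 for all genes, and under the rescaling 10 and 8 fell, beside 2942 and 2693 of 5750. *Dhc64C* was lower in *brat* embryos at 0-1.5 h (-0.85, adjusted p = 0.0126), beside 3.9% of all genes, and *Klc* and *Dlic* at 1.5-3 h (-1.13 and -0.94, adjusted p = 0.0155 and 0.0287), beside 3.57%. Of the 11, 0 were called by limma at the late times, when 2 at each time were lower at an unadjusted p under 0.05 and SAM called 0 and 1 lower. The medians at those times were -0.16 and -0.19.

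Of 15 tested genes of the Torso pathway, 4 fell, beside 34.9% of all genes, and 3 rose, beside 25.5%, over the wild-type course, so neither count stood above the background share. *fs(1)N*, the maternal gene *nasrat* needed for terminal signalling, fell by 3.35, the MEK gene *Dsor1* fell by 1.79, and the terminal gap gene *hkb* and the adaptor gene *drk* rose by 1.84 and 0.84, of which *hkb* alone was called under the rescaling. The median was 0.17, or -0.27 under the rescaling, and that of *tor* itself was -2.67. In the genotype comparison limma called 0 of 15 at each of the 4 times, with 1, 3, 2 and 5 at an unadjusted p under 0.05, and SAM called 1, at 1.5-3 h.

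The 12 other maternal patterning and germ-plasm genes gave 8 falls and 0 rises over the wild-type course, beside 34.9% and 25.5% of all genes, and 9 and 0 in *brat* embryos, beside 29.3% and 19.8%. Their medians were -1.60 and -1.42, both beside -0.15, and under the rescaling 11 and 10 fell, beside 2942 and 2693 of 5750. The posterior determinants *osk* and *nos* changed by -5.09 and -4.27 and the germ-plasm genes *pgc* and *vas* by -4.32 and -4.31 in wild-type embryos, all called. *osk*, whose mRNA also needs STAU, was higher in *brat* embryos at 3-4.5 h (1.50, adjusted p = 0.0321), beside 2.16% of all genes, with an interaction of 1.47 (adjusted p = 0.0403). *tud*, *pgc* and *vas* were lower at 0-1.5 h (-1.10, -0.83 and -0.81, adjusted p = 0.0155, 0.0491 and 0.0387), beside 3.9%, and *pgc* was lower again at 1.5-3 h and 4.5-6 h (-1.54 and -1.07, adjusted p = 0.0168 and 0.0409), beside 3.57% and 5.7%. The median difference of this list was -0.21 at 3-4.5 h and -0.05 at 4.5-6 h.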

How the data were processed

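Total RNA of 24 embryo samples was hybridized by the authors to custom NimbleGen arrays, quantified in NimbleScan and normalized together by RMA, and the deposited values are log2 signals per transcript row. The array's genome build is not given in the sources used here. Of 17775 rows, 17769 had values; 16911 were named through RefSeq, and rows of a gene were averaged. A row was kept when it lay above the mean of all rows in at least 1 of 8 groups (one-sided limma, FDR 0.05), which left 5750 genes. Genotypes were compared per time with limma 3.58.1 in R 4.3.3 in place of the methods' SAM, which is an alternative, and times and interactions in 1 fit of 24 samples, with Benjamini-Hochberg adjustment over 5750 genes and calls at 0.05. The scripts were tested on simulated data. With 3 arrays a group, replicate number limits the precision. Other settings were the filter, SAM, dye, ribosomal protein scaling, row choice, limma-trend, the replicate block and each sample left out. The members and lists were chosen with earlier results of these data known. From each list at most 4 called genes per comparison whose groups did not overlap were named, those with the largest difference first. Figures were drawn with matplotlib 3.10.9.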

Additional observations from a re-analysis of the deposited data

Results flagged for a closer look

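Of the 8 mRNAs tested, 3 had a *brat* effect that differed between a late time and 0-1.5 h by the interaction test. At 3-4.5 h the change in the effect was 1.5519 for *cad* (adjusted p = 0.02374) and 2.8767 for *swa* (adjusted p = 0.001624). At 4.5-6 h it was 1.4485 for *cad* (adjusted p = 0.03121, or 0.0596 with no expression filter), 2.5991 for *swa* (adjusted p = 0.003119) and 1.506 for *BicD* (adjusted p = 0.01862). Both times were set against the same 0-1.5 h samples. Groups of 3 samples were too small for a test of single outlying samples.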

How the results depend on the processing

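The number of mRNAs higher in *brat* embryos at 3-4.5 h, 2 in the report, was 1 with no expression filter, with dye as a covariate and with the replicate block, 4 with 1 fit of all 24 samples, 0 within Cy5, and 0 to 3 with 1 sample left out. At 4.5-6 h, 4 became 2 within Cy3, 0 within Cy5, and 1 to 5 with 1 sample left out. For the interaction, 2 at 3-4.5 h became 1 within Cy3, 0 within Cy5 and 1 to 3 with 1 sample left out, and 3 at 4.5-6 h became 0 within either dye and 1 to 4 with 1 sample left out. The single rise, of *stau*, became 0 under ribosomal protein scaling in the first step and over the course in both genotypes, and in the first step also with no filter and with only the 2 groups compared in both genotypes and with single transcript rows in wild-type embryos, and was 0 to 1 with 1 sample left out. The 3 first-step falls in wild-type embryos were 3 to 4 with 1 sample left out and 4, with *cad*, under ribosomal protein scaling, where *swa* also joined the first-step falls in *brat* embryos. The 2 second-step falls in *brat* embryos were 1 with no filter, with single rows and with only the 2 groups, 4 under ribosomal protein scaling and 0 to 5 with 1 sample left out, and the 7 over the course were 6 to 7. The cause of these shifts was not tested. The within-dye fits set 1 sample against 2 at each time, with the lone sample assumed to vary like the other groups, so their counts of calls say nothing about stability, and only their values are read.

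Some differences that were not called changed sign. At 0-1.5 h *bcd* was -0.02 with single rows, *swa* 0.16 and *egl* -0.0145 within Cy5, *cad* 0.0155 and *swa* 0.0225 at the top of their leave-one-out ranges from -0.35 and -0.19, and at 1.5-3 h *cad* was -0.21 within Cy3. At 3-4.5 h *exu* was -0.62 within Cy3 and -0.0654 to 0.49 with 1 sample left out, and *tor* -0.55 within Cy5, and at 4.5-6 h *exu* was -0.84 to 0.32 with 1 sample left out. The first wild-type step of *tor* was -0.39 to 0.14. For the interaction at 3-4.5 h *stau* was 0.0525 with ribosomal scaling, 0.064 with single rows, 0.0659 within Cy5 and -0.14 to 0.0683 with 1 sample left out, *exu* -0.39 within Cy3 and *tor* -0.39 within Cy5, and at 4.5-6 h *exu* was -1.12 within Cy3 and -0.43 to 0.72 with 1 sample left out, and *egl* -0.18 within Cy3.

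Same-numbered replicates of the genotypes deviated from their group means with correlations of -0.08 to 0.18, so the numbers were not taken to pair the samples. With the replicate block the *cad* difference at 3-4.5 h was 1.44 (adjusted p = 0.0611), the fall of *BicD* from 1.5-3 h to 3-4.5 h in *brat* embryos was called (-0.79, adjusted p = 0.0495), and the block changed no other call of the 8 genes. Over all genes, the calls at 3-4.5 h, 124 higher and 82 lower, were 84 and 42 with the block, 31 and 27 with dye as a covariate, 463 and 398 in 1 fit of 24 samples, 310 and 272 by SAM, 252 and 184 with limma-trend, and 6 and 16 within Cy5. At 1.5-3 h, 231 and 205 became 159 and 126 with no filter, 129 and 102 with dye, 445 and 377 in 1 fit, and 369 and 334 by SAM. At 4.5-6 h, 362 and 328 became 255 and 171 with dye and 567 and 631 by SAM, and at 0-1.5 h, 282 and 224 became 205 and 127 with no filter. The within-dye settings were chosen after seeing the data.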
